A study of Mus musculus with 16 samples.

Results

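The genotype by diet interaction in mouse liver was examined gene by gene. It is a difference of differences: the log2 difference between knockout (LKO) and wild-type (WT) livers on a high-fat diet (HFD), minus the same difference on chow. A positive value means that the fold change on HFD was further upward in LKO than in WT, and a negative value the reverse. All genes of the deposited count table were taken except Acat2, whose value in 1 library differed between both deposited tables. This gave 15118 of 15119 genes, of which 14433 passed a filter on low counts and were tested and 685 did not pass.

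The livers came from female mice that were WT or lacked Arglu1 in hepatocytes, and all animals had been aged to 9 months on chow. WT chow and LKO chow mice then stayed on chow for 12 weeks, while WT HFD and LKO HFD mice received the diet TD. 88137 for the same 12 weeks. The driver of the hepatocyte knockout and the deleted exons are not named in the labels. Each of the 4 groups held 4 poly(A) RNA libraries. Nothing in the labels ties the libraries to separate animals, and the p-values then measure only the spread between these libraries.

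ARGLU1 is an arginine- and glutamate-rich nuclear protein known as a transcriptional coregulator that also binds RNA splicing factors. Liver is the organ that makes bile acids, packages lipid for export and clears sterols. Dietary sterol is known to lower sterol synthesis genes and to raise sterol export genes there. An interaction asks whether the diet acts to a different extent with and without the gene, which is a separate question from whether genotype or diet acts at all.

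Arglu1 was read first as a check of the labels. It stood at 40.4, 45.1, 39.9 and 39.5 CPM (a gene's count scaled to a fixed library size) in WT chow and at 40.2, 43.3, 41.4 and 44.0 CPM in WT HFD. In LKO it stood at 16, 15.9, 14 and 12.8 CPM on chow and at 13.4, 15.4, 16.6 and 16.7 CPM on HFD, below all WT libraries. Its interaction value was 0.05 (SE 0.130, 95% interval -0.23 to 0.32, adjusted p = 0.922). The sign turned with upper-quartile scaling, at -0.01. Genes of hepatocyte transcription factors and secreted proteins summed to 83300 to 146000 CPM per library.

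Total counts ran from 19140286 to 25118525 per library. In a principal component analysis of log2 CPM the genotypes lay apart on the first axis (38.3% of the variance). The second axis (13.8%) placed LKO chow replicates 3 and 4 at 38.1 and 34.7 and LKO chow replicates 1 and 2 at -10.7 and -11. Both WT groups spread on this axis as well, from -5.62 to 28.3 on chow and from -25 to 6.8 on HFD. LKO HFD lay at -20.1 to -8.11, a range that holds LKO chow replicates 1 and 2. The root mean square log2 difference was 0.465 between LKO chow replicates 1 and 2, 0.412 between replicates 3 and 4, and 0.597 to 0.638 across these pairs. Within the other groups it reached 0.558, between WT HFD replicates 1 and 2. Results below are given with all libraries. Where a list median turned sign or moved by over 1.5 times, its left-out values follow, which are the median without LKO chow replicates 3 and 4 and then without replicates 1 and 2.

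Of 14433 genes, 3 (0.0208%) were called in the interaction at a Benjamini-Hochberg adjusted p below 0.05 in edgeR's quasi-likelihood test. Ppp4r4, a regulatory subunit of protein phosphatase 4, had a positive value. Lepr, the leptin receptor, and Adam11, a membrane protein of the disintegrin and metalloprotease family best known from neurons, had negative values. Ppp4r4 fell on HFD in WT and was not called for diet in LKO. Lepr and Adam11 rose on HFD in WT, and both were also higher in LKO than in WT on chow.

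Of the 3 called genes, Lepr and Ppp4r4 have a promoter window in the RefSeq table, and Adam11 is named only. The sequence before the first of 2 Lepr starts is shown, as the stretch next to the gene with the most negative called value. It runs over 250 bases 5′ to 3′ on the plus strand of GRCm38.p6 (chr4:101717157-101717406), and capitals would mark a motif searched for. The Ppp4r4 window (chr12:103532315-103532564) begins 3′ of the GENCODE M21 start of that gene, 103532283, and its letters are not printed.
Lepr: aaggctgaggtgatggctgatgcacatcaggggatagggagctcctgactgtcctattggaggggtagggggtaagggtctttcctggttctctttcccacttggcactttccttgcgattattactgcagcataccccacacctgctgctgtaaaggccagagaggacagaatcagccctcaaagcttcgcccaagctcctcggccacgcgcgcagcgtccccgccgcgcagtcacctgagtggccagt

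The Ppp4r4 window, with 50 bases past the RefSeq start included, had a GC content of 79.7% and 44 CpG dinucleotides, against medians of 52.7% and 7 over 32851 RefSeq mouse promoter windows. The first Lepr window had 61.3% and 18, and the second 54.3% and 13. On both strands of these 3 windows 6 motifs were searched, and none was found. They were the STAT motif TTCNNNGAA (8.3% of all windows), the E-box CACGTG (7.15%), the D-box TTATNNAA (12.0%), the cyclic AMP element TGACGTCA (1.79%), the sterol element TCACNCCAC (1.24%) and the heat shock motif GAANNTTC (7.86%). The absence says only that these letters are not in these windows.

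Ppp4r4 (ENSMUSG00000021209.12) lies on the plus strand of chromosome 12 from 103532283 to 103613831 (GRCm38, GENCODE M21). It stood at 20.7, 22.0, 23.6 and 22.0 CPM in WT chow and at 13.1, 14.1, 12.4 and 13.9 CPM in WT HFD. In LKO it stood at 22.8, 20.4, 26.8 and 23.8 CPM on chow and at 25.8, 25.9, 22.6 and 25.3 CPM on HFD. The 4 WT HFD libraries lay below all 12 others, and the other 3 groups overlapped. The interaction value was 0.81 (SE 0.128, 95% interval 0.54 to 1.08, adjusted p = 0.0413). Ppp4r4 had a called diet effect of -0.72 in WT (adjusted p = 0.000282), and the LKO value was 0.09 (adjusted p = 0.652). LKO against WT was 0.09 on chow (adjusted p = 0.535) and 0.90 on HFD (adjusted p = 2.39e-06).

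Serpina10, a secreted inhibitor of coagulation proteases, ends 955 bases beyond Ppp4r4 on the opposite strand and was chosen for that position after values were seen. It stood at 164 to 211 CPM in WT chow, 166 to 213 CPM in LKO chow, 131 to 148 CPM in WT HFD and 178 to 213 CPM in LKO HFD. WT HFD was again the group below all others. The interaction value of Serpina10 was 0.55 (SE 0.140, adjusted p = 0.378 in edgeR, 0.0336 in DESeq2). Whether the counting used strand is not given in the sources used here, so reads running past either gene's end cannot be told apart.

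Lepr (ENSMUSG00000057722.17), the receptor of the fat-derived hormone leptin, lies on the plus strand of chromosome 4 from 101717404 to 101815352. It stood at 4.04, 5.74, 7.80 and 5.75 CPM in WT chow and at 31.3, 22.7, 23.8 and 22.1 CPM in WT HFD. In LKO it stood at 21.9, 16.2, 11.4 and 14.2 CPM on chow and at 22.1, 20.9, 16.3 and 21.4 CPM on HFD. WT chow lay below every other library, and both LKO groups overlapped. The interaction value was -1.76 (SE 0.278, 95% interval -2.35 to -1.17, adjusted p = 0.0413). Lepr rose on HFD in WT by 2.10 on the log2 scale (adjusted p = 2.73e-05), against 0.34 in LKO (adjusted p = 0.375). It rose with knockout on chow by 1.45 (adjusted p = 6.8e-05), and the value on HFD was -0.31 (adjusted p = 0.295).

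Adam11 (ENSMUSG00000020926.16) lies on the plus strand of chromosome 11 from 102761439 to 102780262. It stood at 15.7, 13.6, 21.7 and 19.1 CPM in WT chow and at 107, 101, 123 and 147 CPM in WT HFD. In LKO it stood at 111, 53.1, 95.4 and 80.9 CPM on chow and at 188, 182, 175 and 189 CPM on HFD. WT chow was lowest without overlap, LKO HFD highest without overlap, and WT HFD and LKO chow overlapped. The interaction value was -1.66 (SE 0.264, 95% interval -2.22 to -1.10, adjusted p = 0.0413). Unlike Lepr, Adam11 was also called for diet in LKO, with 1.11 (adjusted p = 0.00446) against 2.77 in WT (adjusted p = 1.75e-06). It was also called for genotype on HFD, with 0.62 (adjusted p = 0.026) against 2.28 on chow (adjusted p = 3.53e-07). No annotated gene overlaps Ppp4r4, Lepr or Adam11.

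**Figure D1:**
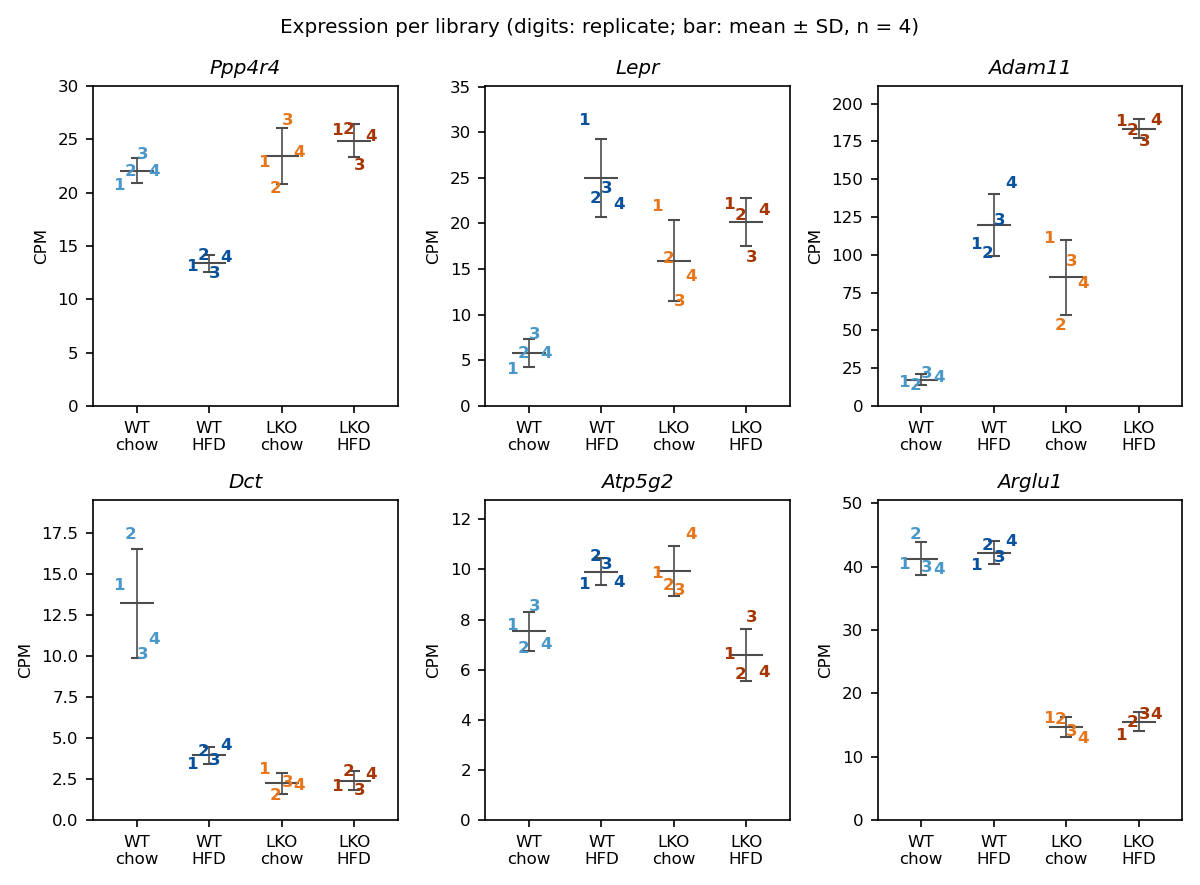
Expression in CPM per library (digits are replicate numbers, bars the mean ± SD, n = 4) for the 3 called genes, the 2 genes next in adjusted p, and Arglu1, with CPM axes from 0. WT HFD stands alone at 12.4 to 14.1 CPM for Ppp4r4, and WT chow stands alone at 4.04 to 7.80 CPM for Lepr and 13.6 to 21.7 CPM for Adam11.

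At an adjusted p below 0.10 the count was 5, with Dct and Atp5g2 added (adjusted p = 0.0841 each in edgeR). Both were chosen after their values were seen. Dct, dopachrome tautomerase of melanin synthesis (chromosome 14, 118012790 to 118052244, minus strand), stood at 14.3, 17.4, 10.1 and 11 CPM in WT chow. It stood at 3.41 to 4.56 CPM in WT HFD, 1.5 to 3.08 CPM in LKO chow and 1.77 to 2.94 CPM in LKO HFD, so that WT chow was apart from the rest. Its interaction value was 1.84 (95% interval 1.16 to 2.52), from a diet effect of -1.74 in WT (adjusted p = 0.000265) and a value of 0.10 in LKO (adjusted p = 0.864). An antisense gene, 4930435M08Rik, overlaps Dct, and reads of the pair cannot be told apart without strand.

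Atp5g2 encodes subunit c of the mitochondrial ATP synthase (chromosome 15, 102662864 to 102672352, minus strand). It stood at 6.83 to 8.50 CPM in WT chow, 9.16 to 11.4 CPM in LKO chow, 9.41 to 10.5 CPM in WT HFD and 5.81 to 8.07 CPM in LKO HFD. This was a crossed pattern: called higher in LKO on chow (0.40, adjusted p = 0.025) and lower on HFD (-0.59, adjusted p = 0.00299). Its interaction value was -0.99 (95% interval -1.36 to -0.62). Other genes encode the same mature subunit, so the assignment of reads is uncertain.

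The sizes of the called values moved little between fits, but the calls did. Over all alternatives Ppp4r4 ran from 0.70 to 0.93, Lepr from -2.01 to -1.44 and Adam11 from -1.83 to -1.51. When each library was left out in turn, 11 of 16 fits called no gene. The fits without LKO chow replicate 1 (9 genes), LKO chow replicate 2 (Adam11), LKO chow replicate 3 (Lepr and Ppp4r4), WT chow replicate 3 (Lepr) and LKO HFD replicate 3 (5 genes, with Ppp4r4) were those that did. DESeq2 called 48 genes, 29 higher and 19 lower, and limma voom with quality weights 16, 10 higher and 6 lower, and each held all 3. All 5 genes above were called by both tools. With a mean count of at least 50 required, no gene was called, and the 3 genes had an adjusted p of 0.0565. Upper-quartile scaling called 2 and lost Ppp4r4 (0.74, adjusted p = 0.108).

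Of the fits run, the largest change of this count came without LKO chow replicates 1 and 2. No 2 libraries of any other group were left out together, so the groups cannot be compared in this. Without LKO chow replicates 3 and 4, 2 genes were called, Lepr and Ppp4r4. Without LKO chow replicates 1 and 2 the count was 1262 of 14672 genes (8.6%). It comprised 917 positive and 345 negative values and held all 3 genes. These 2 subsets leave 2 LKO chow libraries each. The pairs were chosen with these data known, and the libraries kept are alike. Their root mean square log2 difference was 0.465 (replicates 1 and 2) or 0.412 (replicates 3 and 4), against 0.597 to 0.638 across the pairs. The spread of the group is thus small by choice, and calls from these 2 fits, here and below, are descriptions only. What sets the pairs apart was not tested, and the labels name no batch. Every edgeR count of called genes in a list below is 0 with all libraries, and counts of 3 or more without replicates 1 and 2 are given beside it.

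Most interaction values were small or imprecise. The median over the 14433 genes was -0.017 with a median SE of 0.217, and 1265 genes (8.76%) had an unadjusted p below 0.05, 686 higher and 579 lower. The 95% interval lay within a 2-fold difference in either direction for 9939 genes (68.9%). A value of at least 1 in size was fitted for 424 genes, of which 2 were called. For all genes outside those 9939, the called genes included, the interval reached beyond 2-fold.

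The simple effects had far more calls. LKO against WT was called for 3564 genes on chow (24.7%) and 2583 on HFD (17.9%), and HFD against chow for 294 in WT (2.04%) and 320 in LKO (2.22%). The genotype comparisons use separate libraries on each diet. They shared 1772 called genes, 49.7% of those on chow and 68.6% of those on HFD, and 1769 of these had the same sign. Pearson's r across genes was 0.77, as a description, since genes are not independent. Of 4375 genes called on either diet, 3 were called in the interaction, and for 3224 (73.7%) the interaction interval lay within 2-fold.

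The diet comparisons also use separate libraries in each genotype. They shared 84 called genes, 28.6% of those in WT and 26.2% of those in LKO, all with the same sign, and r across genes was 0.41. Of 530 genes called for diet in either genotype, 3 were called in the interaction, and for 315 (59.4%) the interval lay within 2-fold. A gene called for diet in WT only is thus not shown to respond differently in LKO unless the interaction itself was called.

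**Figure D2:**
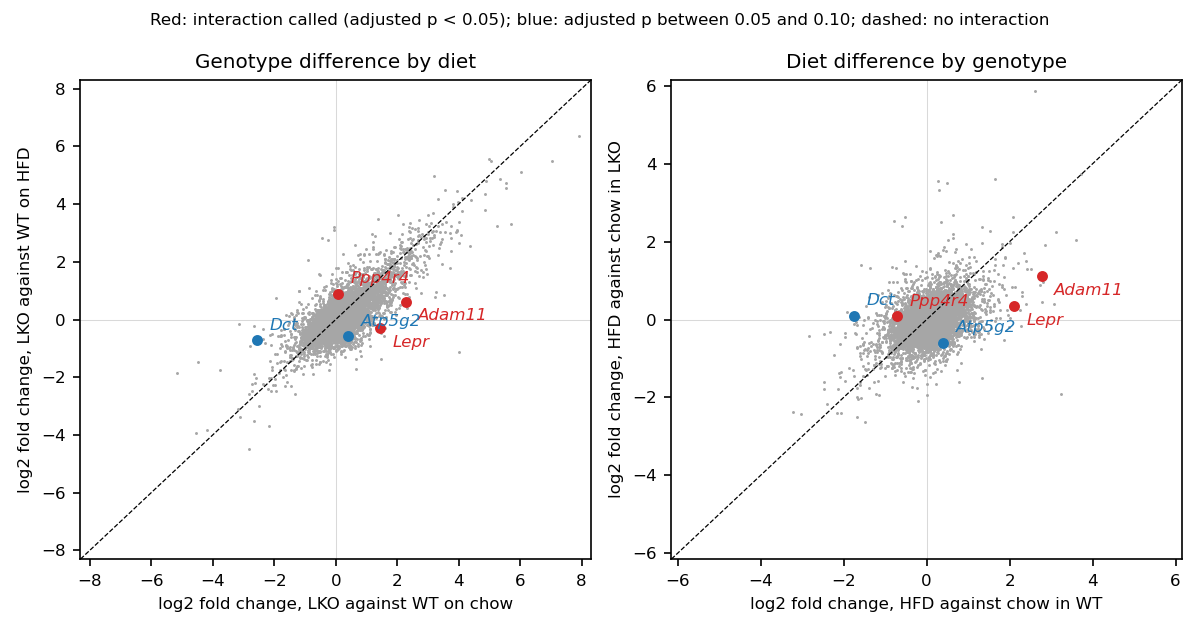
Fitted log2 fold changes of all 14433 tested genes, with LKO against WT on chow (x) and HFD (y) at left and HFD against chow in WT (x) and LKO (y) at right. Points on the dashed line have no interaction, red points are the 3 called genes, and blue points are Dct and Atp5g2; Lepr and Adam11 lie below the line and Ppp4r4 above it.

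Gene lists of liver functions and cell types were read next, with 46 lists that held 917 tested genes. No list gene was called in the interaction by edgeR. Of the 917, 126 (13.7%) had an unadjusted p below 0.05, against 8.76% of all tested genes. The lists were chosen with earlier results of these data known, so the higher share is no independent evidence about these functions. DESeq2 called 10 of them and voom 2. Without LKO chow replicates 3 and 4 none was called, and without replicates 1 and 2, 87 (9.49%) were, against 8.6% of all genes in that fit. Counts of list genes called in the simple effects stand beside 24.7% of all genes for knockout on chow, 17.9% for knockout on HFD, 2.04% for diet in WT and 2.22% for diet in LKO. The genes named below have the lowest p of their lists, so their values are at the high end by choice. The adjusted p of all of them is 0.232 or higher in edgeR.

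Cholesterol synthesis is lowered by dietary sterol through SREBP2, the transcription factor that drives the pathway. Of 19 genes, 12 fell on HFD in WT and 10 in LKO, with median log2 fold changes of -1.48 and -1.14. The interaction median was 0.34 (16 positive, 3 negative, 2 at unadjusted p below 0.05; left-out values 0.54 and 0.18), with no gene called by any of the 3 tools. Idi1, an isomerase of the isoprenoid steps, stood at 189 to 351 CPM in WT chow, 181 to 221 CPM in LKO chow, 35.2 to 63.9 CPM in WT HFD and 52.4 to 94.0 CPM in LKO HFD. Its diet effect was called in both genotypes (-2.46 and -1.60), and its interaction value was 0.87 (SE 0.314).

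SREBP control and sterol uptake held 12 genes with a median of 0.25, 2 of them positive at unadjusted p below 0.05. Stard4, a cytosolic sterol carrier, stood at 140 to 214 CPM in WT chow and at 99.8 to 115 CPM in WT HFD. In LKO it stood at 91.7 to 119 CPM on chow and 94.1 to 108 CPM on HFD. WT chow was apart from the other 3 groups, and the interaction value was 0.65 (SE 0.170, adjusted p = 0.390).

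The sterol exporters Abcg5 and Abcg8 pump sterols into bile as a heterodimer and are LXR targets. Abcg5 stood at 60.1 to 91.2 CPM in WT chow and 308 to 374 CPM in WT HFD, and at 71.8 to 146 CPM in LKO chow and 226 to 274 CPM in LKO HFD. It rose on HFD by 2.09 in WT (adjusted p = 5.36e-06) and by 1.32 in LKO (adjusted p = 0.00113). The HFD groups did not overlap and the chow groups did. The interaction value was -0.77 (SE 0.240, adjusted p = 0.403). Abcg8 rose by 1.87 and 1.09, with an interaction value of -0.78 (SE 0.214, adjusted p = 0.394). The other 8 of the 10 LXR genes had an unadjusted p of 0.05 or more, and the list median was -0.15 (left-out values -0.13 and -0.08).

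In fat handling the values ran both ways. Lpl, which releases fatty acids from lipoproteins, stood at 12.4 to 23.1 CPM in WT chow, 34.3 to 46.0 CPM in WT HFD, 83.4 to 132 CPM in LKO chow and 82.6 to 146 CPM in LKO HFD. It rose on HFD in WT by 1.24 (adjusted p = 0.00427) and the value in LKO was 0.03 (adjusted p = 0.954). The interaction value was -1.21 (SE 0.287, adjusted p = 0.271 in edgeR, 0.0202 in DESeq2). Plin4, a lipid droplet coat protein, had -1.30 (SE 0.551), Mogat1, which forms diacylglycerol, -0.86 (SE 0.411), and Ucp2, a mitochondrial carrier, -0.50 (SE 0.185). Mogat1 and Ucp2 rose with knockout on both diets (3.36 and 2.50, 2.19 and 1.69), and Plin4 was called on chow only (1.61). The Mogat1 values were fitted against only 0.538 to 1.47 CPM in WT chow. Vldlr, on the uptake list, went the other way at 0.73 (SE 0.264, adjusted p = 0.480 in edgeR).

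Elovl3, a fatty acid elongase that is also male-biased, stood at 0.915 to 1.38 CPM in WT chow, 2.42 to 6.44 CPM in WT HFD, 2.42 to 4.42 CPM in LKO chow and 2.66 to 4.91 CPM in LKO HFD. For Elovl3 the interaction value was -1.73 (SE 0.406, adjusted p = 0.260 in edgeR, 0.0209 in DESeq2). The 19 fatty acid synthesis genes had a median of 0.13 with 2 lower at unadjusted p below 0.05. Medians were -0.03 for 21 triglyceride and lipid droplet genes (1 lower), -0.02 for 30 fatty acid oxidation and PPARA targets (2 higher, 2 lower), -0.06 for 12 uptake and PPARG targets (1 and 2) and 0.08 for 19 lipoprotein and lipase genes (2 and 1, and 4 called higher without LKO chow replicates 1 and 2). Left-out values were 0.05 and 0.00, 0.01 and 0.07, 0.00 and -0.17, and 0.05 and 0.05 in the same order. Among these 5 lists DESeq2 called 1 gene each, lower, in fatty acid synthesis and in uptake and PPARG targets.

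Cyp7a1, the rate-limiting enzyme of bile acid synthesis, stood at 112 to 190 CPM in WT chow and 164 to 472 CPM in WT HFD, and at 151 to 299 CPM in LKO chow and 166 to 243 CPM in LKO HFD. All groups overlapped. The interaction value of Cyp7a1 was -1.05 (SE 0.401, adjusted p = 0.494). The 15 synthesis genes had a median of -0.07 (1 higher and 1 lower at unadjusted p below 0.05), and 15 bile acid transport and FXR targets 0.09 (1 and 1). Left-out values were -0.04 and -0.10 for synthesis and 0.18 and 0.08 for transport.

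**Figure D3:**
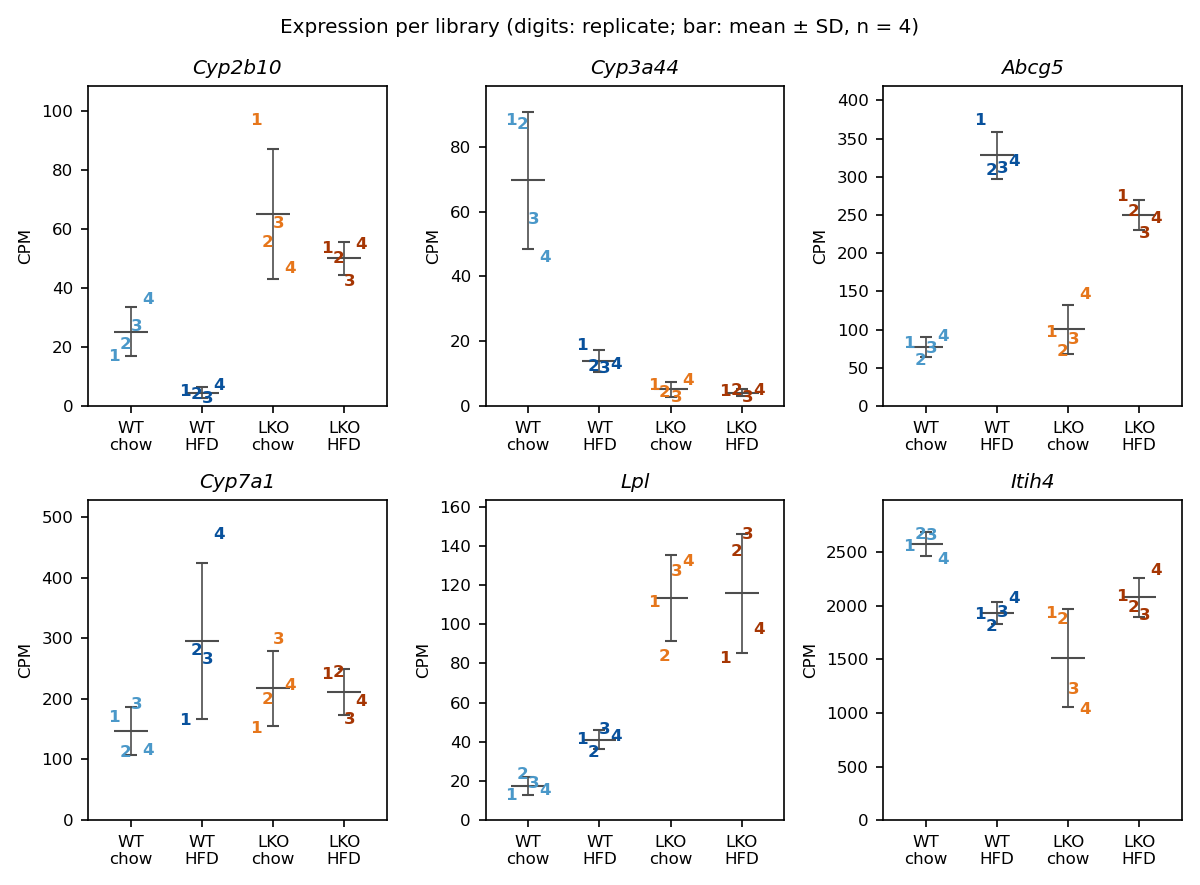
CPM per library (digits are replicate numbers, bars the mean ± SD, n = 4, axes from 0) for 6 list genes with low unadjusted interaction p, none called by edgeR. Cyp2b10 is lowest in WT HFD at 2.42 to 6.82 CPM, and Abcg5 is higher in WT HFD (308 to 374 CPM) than in LKO HFD (226 to 274 CPM).

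Among enzymes of drug metabolism, Cyp2b10, a target of the receptor CAR that is higher in female liver, had the lowest p of all list genes. It stood at 16.9, 21, 26.9 and 36.3 CPM in WT chow and at 4.90, 3.98, 2.42 and 6.82 CPM in WT HFD. In LKO it stood at 97.0, 55.6, 62.0 and 46.6 CPM on chow and at 42.2 to 54.8 CPM on HFD. It fell on HFD in WT by -2.48 (adjusted p = 0.000573), and the value in LKO was -0.38 (adjusted p = 0.503). The interaction value was 2.10 (SE 0.411, adjusted p = 0.232 in edgeR, 0.000126 in DESeq2, 0.0338 in voom). The 31 genes of the list had a median of 0.13 with 6 higher and 2 lower at unadjusted p below 0.05, and 4 higher and 1 lower were called without LKO chow replicates 1 and 2. Reads of Cyp2b, Cyp2c, Cyp2d and Cyp3a genes may be split between near-identical copies, so each such value is uncertain.

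Sex-biased genes are set in mouse liver by the pattern of growth hormone release. Female-biased genes had a median of 0.45 over 37 genes, 8 higher and none lower at unadjusted p below 0.05 (left-out values 0.30 and 0.61). DESeq2 called 3 of them and voom 1, and 3 were called higher without LKO chow replicates 1 and 2. On chow 24 fell with knockout and 2 rose, and on HFD 12 fell and 3 rose. Cyp3a44 stood at 45.9 to 88.2 CPM in WT chow, 11.7 to 18.8 CPM in WT HFD, 2.60 to 7.83 CPM in LKO chow and 2.51 to 4.91 CPM in LKO HFD. It fell on HFD in WT by -2.33 (adjusted p = 0.000728), the value in LKO was -0.31, and the interaction value was 2.02 (SE 0.444, adjusted p = 0.260 in edgeR, 0.00168 in DESeq2). Over the list, mean log2 CPM was 6.51 to 6.80 in WT chow, 5.77 to 6.35 in WT HFD, 4.88 to 5.40 in LKO chow and 4.96 to 5.51 in LKO HFD. Both WT groups were apart, and both LKO groups overlapped.

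Male-biased genes had a median of -0.30 over 42 genes, with 3 higher and 5 lower at unadjusted p below 0.05, and DESeq2 called 1 higher and 2 lower. The male-biased median was 0.10 without LKO chow replicates 3 and 4 and -0.53, with 2 called higher and 6 lower, without replicates 1 and 2. Cyp2d9 stood at 6.25 to 11.7 CPM in WT chow, 18.4 to 29.9 CPM in WT HFD, 68.6 to 112 CPM in LKO chow and 83.2 to 145 CPM in LKO HFD, with an interaction value of -1.10 (SE 0.308). C9, a terminal complement component on this list, went the other way at 0.89 (SE 0.190, adjusted p = 0.246 in edgeR, 0.00661 in DESeq2). It stood at 71.5 to 106 CPM in LKO chow and at 139 to 198 CPM over the other 3 groups. The 17 growth hormone and STAT5 signalling genes had a median of 0.13 (1 higher; left-out values 0.01 and 0.26).

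The unfolded protein response raises chaperones of the endoplasmic reticulum. Of its 23 genes, 13 were higher and none lower at unadjusted p below 0.05, the highest share of any list, with a median of 0.43 and 21 positive values. The edgeR, DESeq2 and voom counts of called genes were 0. Hyou1, a chaperone, stood at 128 to 186 CPM in WT chow, 84.9 to 135 CPM in WT HFD, 116 to 205 CPM in LKO chow and 144 to 197 CPM in LKO HFD, with an interaction value of 0.82 (SE 0.262, adjusted p = 0.413). The HFD groups did not overlap. Hsp90b1 had 0.57 (SE 0.191), Creld2 0.66 (SE 0.229) and Dnajc3 0.57 (SE 0.223).

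This list moved with the LKO chow pairs. Its mean log2 CPM was 6.74 and 7.0 in LKO chow replicates 1 and 2 and 6.56 and 6.57 in replicates 3 and 4. The median was 0.25 without replicates 3 and 4, and 0.71 with 10 of 23 called higher without replicates 1 and 2. The part of this spread in the result was not tested. Integrated stress response genes had a median of 0.03 (1 of 22 higher), cytosolic heat shock genes 0.18 (2 of 24 higher) and NRF2 targets -0.04 (0 of 21). Left-out values were 0.05 and -0.02, 0.08 and 0.25, and 0.05 and -0.11 in the same order. None of the 3 lists held a gene called by edgeR, DESeq2 or voom.

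Acute phase proteins are secreted by hepatocytes in inflammation. Of 30 genes, 14 were higher and none lower at unadjusted p below 0.05, with a median of 0.38. Itih4, a serum protease inhibitor family member, stood at 2430 to 2670 CPM in WT chow, 1810 to 2070 CPM in WT HFD, 1030 to 1930 CPM in LKO chow and 1910 to 2330 CPM in LKO HFD. For Itih4 the interaction value was 0.88 (SE 0.222, adjusted p = 0.363 in edgeR, 0.0286 in DESeq2, 0.0338 in voom). Itih3 had 0.69 (SE 0.210), Crp, C-reactive protein, 0.57 (SE 0.165) and Orm2, an acid glycoprotein, 1.45 (SE 0.439). In LKO chow the list mean was 6.90 to 7.13, below all HFD libraries of either genotype (7.24 to 7.56), while WT chow spread from 7.07 to 7.74. The median was 0.32 without LKO chow replicates 3 and 4 and 0.52, with 6 called, without replicates 1 and 2.

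Clock genes follow the time of day at collection, which the labels do not give. The 21 genes had a median of 0.44, with 5 higher at unadjusted p below 0.05. Cry2, a repressor of the clock, stood at 37.3 to 46.5 CPM in WT chow, 34.3 to 44.9 CPM in WT HFD, 26.2 to 37.3 CPM in LKO chow and 36.0 to 57.3 CPM in LKO HFD, with an interaction value of 0.70 (SE 0.202, adjusted p = 0.397). Nr1d2, a nuclear receptor of the same loop, had 0.88 (SE 0.285), and Ciart 1.69 (SE 0.688) at only 0.220 to 3.10 CPM. The mean log2 CPM of the list in LKO chow replicate 2 was 3.88, the lowest of all libraries, and the LKO chow libraries spanned 3.88 to 4.44 against 4.51 to 4.91 elsewhere. Collection time was not tested.

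**Figure D4:**
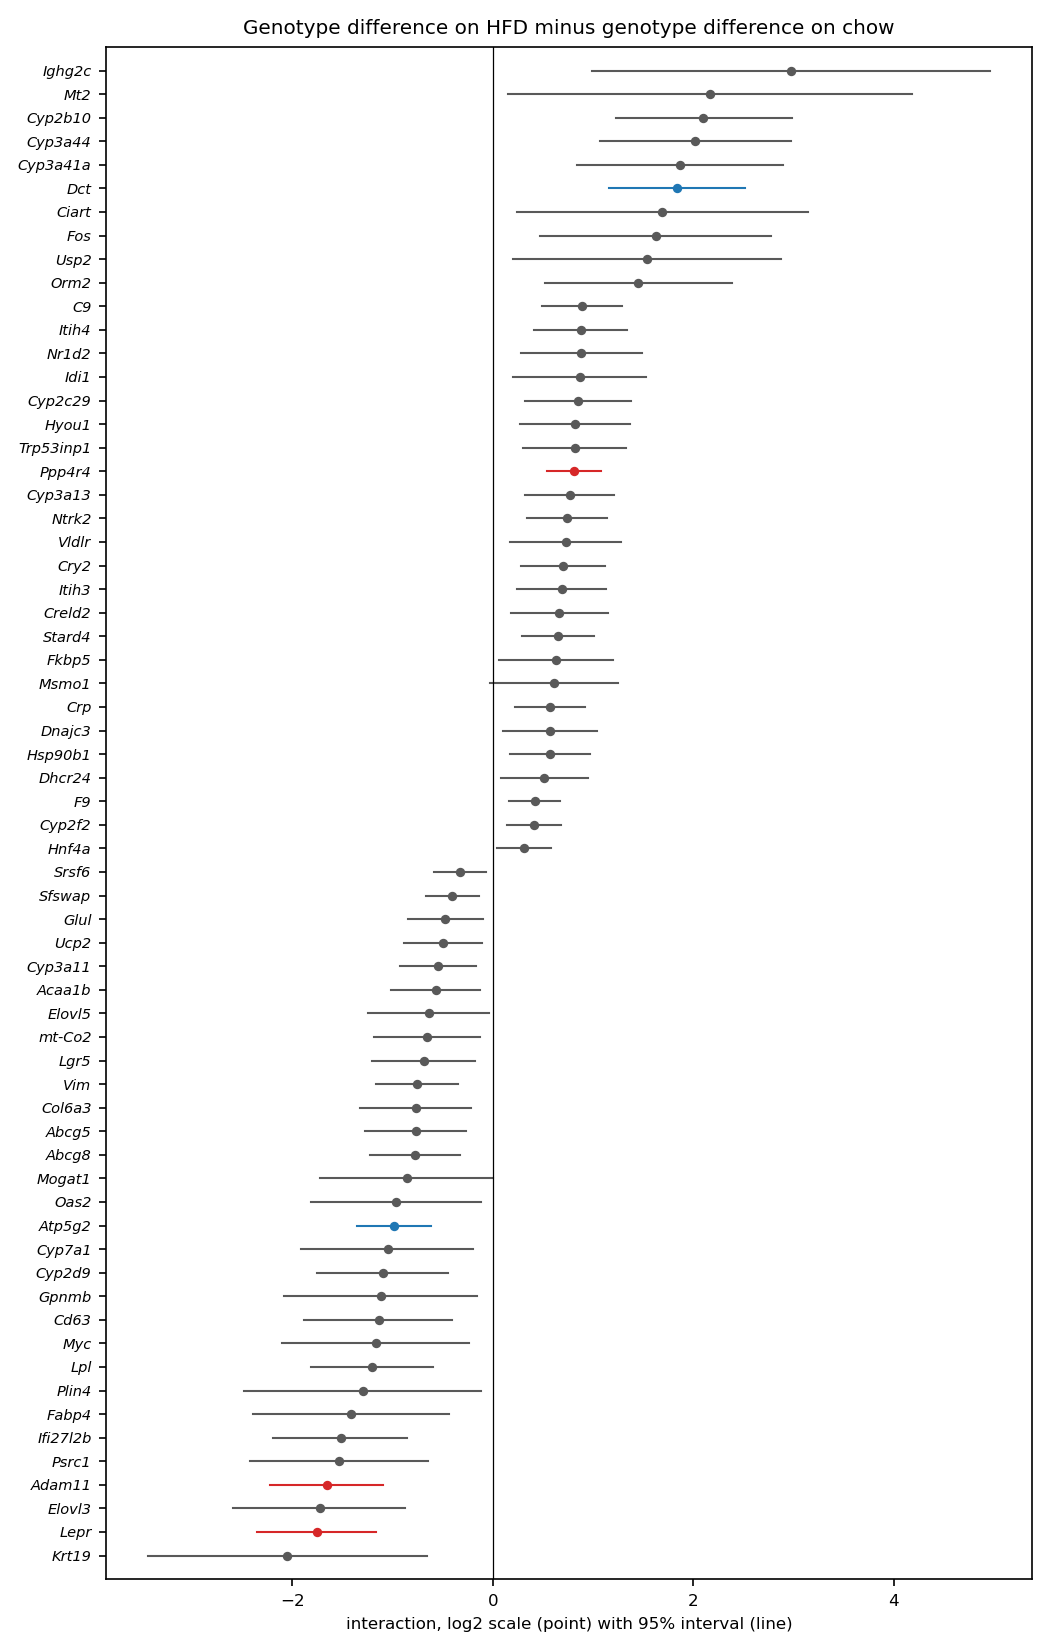
Interaction values with 95% intervals on the log2 scale for the genes named in the text, except Arglu1 and Serpina10, ordered by value. List genes were chosen for low p; red marks the 3 genes called at an adjusted p below 0.05, and blue Dct and Atp5g2. Ighg2c, Mt2 and Krt19 have wide intervals.

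Glucocorticoid receptor targets had a median of 0.25 over 20 genes, 3 of them higher (left-out values 0.19 and 0.42). Fkbp5, a chaperone that dampens the receptor, had 0.63 (SE 0.271). Mt2, a metallothionein, had 2.17 (SE 0.933), with 6.94 to 49.6 CPM in WT chow and 7.40 to 65.1 CPM in WT HFD, and each WT group overlapped every other group. Immediate early genes had a median of 0.05 over 20 genes (2 higher, 2 lower; left-out values -0.14 and 0.17), with Fos at 1.63 (SE 0.547) and Myc at -1.17 (SE 0.441).

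p53 targets and interferon-stimulated genes were for the most part higher in LKO on both diets. Of 33 p53 targets 20 rose and 1 fell with knockout on chow, and 18 rose on HFD. Their interaction median was 0.07, with 3 higher and 3 lower at unadjusted p below 0.05, and it turned to -0.04 without LKO chow replicates 3 and 4. Without replicates 1 and 2 it was 0.19, with 4 called higher and 2 lower. Psrc1, a microtubule-associated protein, stood at 0.153 to 0.377 CPM in WT chow, 0.226 to 0.968 CPM in WT HFD, 32.3 to 39.8 CPM in LKO chow and 23.8 to 30.7 CPM in LKO HFD. Its interaction value of -1.54 (SE 0.420, adjusted p = 0.394 in edgeR, 0.0492 in DESeq2) was fitted against WT levels below 1 CPM. Trp53inp1, a p53-induced regulator of cell death, stood at 98.4 to 136 CPM in WT chow and 48.3 to 76.3 CPM in WT HFD, and at 145 to 258 CPM in LKO chow and 177 to 198 CPM in LKO HFD. It had 0.82 (SE 0.244).

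Interferon-stimulated genes rose with knockout in 40 of 49 on chow and 32 on HFD. Their interaction median was -0.24 (8 positive, 41 negative, 2 lower at unadjusted p below 0.05), with left-out values of -0.41 and -0.04. Ifi27l2b stood at 8.22 to 10.1 CPM in WT chow, 20.9 to 45.0 CPM in WT HFD, 70.1 to 124 CPM in LKO chow and 105 to 130 CPM in LKO HFD. It rose on HFD in WT by 1.77 (adjusted p = 0.000573), the value in LKO was 0.25, and the interaction value was -1.52 (SE 0.314, adjusted p = 0.232 in edgeR, 0.00241 in DESeq2). Oas2, an RNA-sensing synthetase, had -0.97 (SE 0.403).

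SR proteins bind exonic splicing enhancers, and their kinases set their activity. Of 33 such genes 13 fell and 1 rose with knockout on chow (24.7% of all genes were called), and 19 fell on HFD (17.9%). The interaction median was -0.20, 28 values were negative, and 3 were lower at unadjusted p below 0.05. Sfswap, a splicing regulator, stood at 23.9 to 27.1 CPM in WT chow, 25.8 to 29.0 CPM in WT HFD, 19.4 to 24.2 CPM in LKO chow and 16.9 to 19.1 CPM in LKO HFD. Its interaction value was -0.41 (SE 0.124, adjusted p = 0.401), and that of Srsf6 -0.33 (SE 0.122). The list mean was 5.64 and 5.60 in LKO chow replicates 1 and 2, within or next to the 5.57 to 5.65 of LKO HFD. It was 5.87 and 5.94 in LKO chow replicates 3 and 4, within or next to the 5.89 to 6.03 of WT chow. The median was -0.03 without replicates 3 and 4 and -0.36, with 8 called lower, without replicates 1 and 2.

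Of the remaining function lists, urea cycle and periportal enzymes had 18 of 18 positive values with a median of 0.22 (left-out values 0.33 and 0.11), 2 of them at unadjusted p below 0.05. Cyp2f2, a periportal cytochrome, had 0.41 (SE 0.129). Pericentral genes had a median of -0.23 over 18 genes (left-out values -0.03 and -0.24), with 1 higher and 3 lower at unadjusted p below 0.05, and 1 higher and 2 lower called without LKO chow replicates 1 and 2. Lgr5, a Wnt-pathway receptor of the hepatocytes next to the central vein, stood at 9.47 to 14.2 CPM in WT chow, 8.31 to 12.6 CPM in WT HFD, 7 to 11.1 CPM in LKO chow and 4.32 to 5.33 CPM in LKO HFD. It fell on HFD in LKO by -0.93 (adjusted p = 0.00987) and was -0.24 in WT, and its interaction value was -0.69 (SE 0.244, adjusted p = 0.463). Glul, glutamine synthetase of the same cells, had -0.48 (SE 0.179). The 1 higher gene was Cyp2c29, at 0.85 (SE 0.251, adjusted p = 0.400 in edgeR), with a lower p than Lgr5 or Glul.

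Hepatocyte transcription factors and secreted proteins had a median of 0.01 over 21 genes (left-out values 0.12 and -0.04), with 4 higher and 1 lower, and 3 called higher without LKO chow replicates 1 and 2. F9, coagulation factor IX, had 0.42 (SE 0.122) and Hnf4a 0.31 (SE 0.128). Mitochondrially encoded genes were negative in 13 of 13, with a median of -0.16 and 1 lower, mt-Co2 at -0.66 (SE 0.252). This median was 0.24 without LKO chow replicates 3 and 4 and -0.45, with 4 called, without replicates 1 and 2. Their summed level was 47700 to 86600 CPM in LKO chow. Nuclear oxidative phosphorylation genes had -0.11 over 36 genes, against which the 2 at unadjusted p below 0.05 were both higher, with left-out values of 0.12 and -0.31. Medians were -0.01 for 35 cytosolic ribosomal proteins with no unadjusted p below 0.05 (left-out values 0.10 and -0.10), 0.03 for 23 glucose and glycogen genes (-0.01 and 0.17), and 0.03 for 19 iron and haem genes (0.00 and 0.07). Cell cycle genes had -0.48 over 28, with 1 higher and 3 lower (left-out values -0.28 and -0.69).

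**Figure D5:**
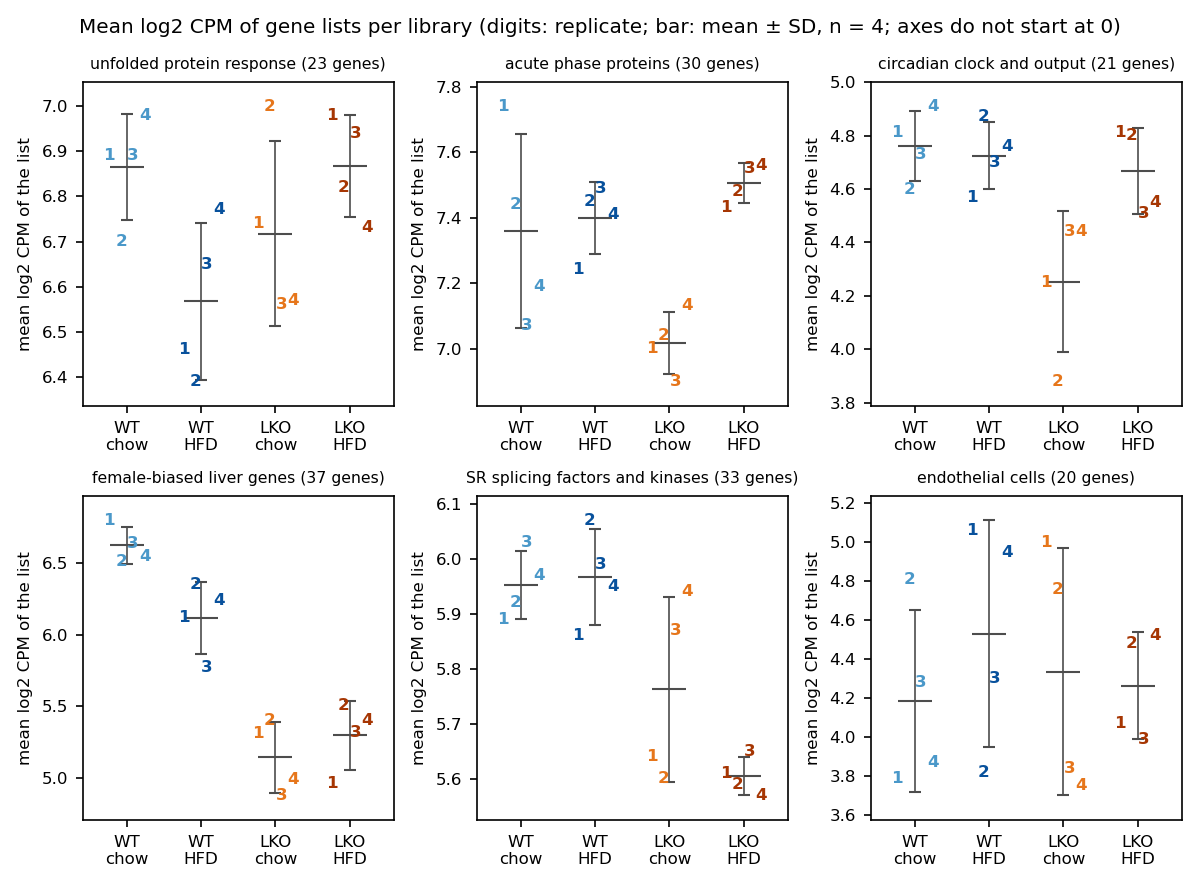
Mean log2 CPM of 6 gene lists in each library (digits are replicate numbers, bars the mean ± SD, n = 4; axes do not start at 0). LKO chow replicates 1 and 2 stand apart from replicates 3 and 4 for SR splicing factors (5.64 and 5.60 against 5.87 and 5.94) and for endothelial markers (5.0 and 4.76 against 3.84 and 3.75).

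Markers of other cell types were read in the same way. In bulk RNA fewer cells of a type and less RNA per cell cannot be told apart. Markers of endothelial cells were negative in 20 of 20, with a median of -0.52 and 2 lower at unadjusted p below 0.05, and their summed level spread from 406 to 891 CPM in WT chow, 406 to 1010 CPM in WT HFD, 407 to 1010 CPM in LKO chow and 443 to 671 CPM in LKO HFD. The endothelial median was -1.0 without LKO chow replicates 3 and 4 and 0.24 without replicates 1 and 2. Kupffer cell markers had a median of -0.05 over 12 genes with none at unadjusted p below 0.05, and it moved from -0.55 to 0.79 between the same fits. Their summed level in LKO chow was 313 to 948 CPM. None of either list was called in these fits, and no marker of any cell type list was at 0 in all libraries. The part of cell content in the values above was not tested.

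Lipid-associated macrophages are scavenger cells that gather around fat-laden hepatocytes. Their 14 markers had a median of -0.43 with 5 lower and none higher at unadjusted p below 0.05, and 1 was called by DESeq2, Lpl, which LKO livers held at 82.6 CPM or more on either diet. Without LKO chow replicates 1 and 2, 3 were called lower. Cd63, a lysosomal membrane protein, stood at 4.15 to 5.11 CPM in WT chow, 6.87 to 14.2 CPM in WT HFD, 4.32 to 8.98 CPM in LKO chow and 5.44 to 9.06 CPM in LKO HFD, with an interaction value of -1.14 (SE 0.348). Gpnmb, a glycoprotein of the same macrophages, rose on HFD in both genotypes, by 2.41 in WT (adjusted p = 0.000608) and by 1.29 in LKO (adjusted p = 0.0387), with an interaction value of -1.12 (SE 0.457, adjusted p = 0.510). Its level in WT chow was only 0.563 to 1.02 CPM. The summed level of the list was 876 to 1050 CPM in WT chow, 1080 to 1220 CPM in WT HFD, 1210 to 1350 CPM in LKO chow and 1420 to 1570 CPM in LKO HFD.

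Stellate cell and matrix genes had a median of -0.43 over 25 genes, 24 negative and 4 lower at unadjusted p below 0.05 (left-out values -0.60 and -0.22). Vim, vimentin, had -0.76 (SE 0.195, adjusted p = 0.378) and Col6a3, a collagen chain, -0.77 (SE 0.263). On HFD in WT 4 of the 25 rose, and in LKO none was called. Bile duct markers had -0.21 over 13 genes (left-out values -0.05 and -0.35) with 1 lower, Krt19 (-2.05, SE 0.660) at 0.263 to 1.64 CPM. B and plasma cell markers had 0.33 over 15 genes with 1 higher, Ighg2c (2.97, SE 0.930), at 0.580 to 11.9 CPM in WT chow. Macrophage and monocyte markers had -0.14 over 20 and turned sign between the left-out values, -0.45 and 0.46. Neutrophil markers had -0.21 over 5 of 13 listed (-0.18 and 0.10) and red blood cell markers 0.34 over 6 of 8 listed (1.45 and -0.27). T and NK cell markers had 0.48 over 18 with 1 higher. Of 7 listed adipocyte markers 2 were tested, among them Fabp4, a fatty acid carrier, at -1.42 (SE 0.463). Of 11 listed pancreas markers 2 were tested, with neither at unadjusted p below 0.05. Listed markers that were not tested were absent from the counts table or did not pass the filter.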

How the data were processed

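Poly(A) RNA of 16 liver libraries was sequenced as paired reads on a NovaSeq, per the labels. Values are estimated counts per gene symbol, which the authors deposited without normalisation. Of the values 51.1% were whole (tolerance 1e-06), and all were rounded. The submitters' processing notes name mm10, Bowtie2 and DESeq2; the counting tool and annotation are not given in the sources used here. The counts table holds 15119 genes, those of a second table (35712 genes) with no 0 in any of the 16 libraries, and 99.93% of its counts. Genes at 0 in any library were not analysed here. The second table, named as RPKM, holds the same estimated counts with its chow columns 1 row low; it served as an alternative after realignment. Acat2 was left out (8555 against 2296.5 in WT HFD replicate 2).

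All 16 libraries were fitted with edgeR 4.0.16 (R 4.3.3): filterByExpr, TMM scaling, 1 mean per group, robust quasi-likelihood, 2-sided tests, Benjamini-Hochberg adjustment over 14433 genes, threshold 0.05. CPM are TMM-scaled, and log2 CPM use a prior count of 2. Symbols of 14531 genes matched GENCODE M21, and promoters are RefSeq's. Same-numbered libraries were not paired: 5 of 24 correlations exceeded 0.1 (median -0.018).

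Named are Arglu1, up to 15 called genes in each direction and up to 4 genes of lowest p per list; this gave 176, of which the text and plots give a part; the others are not reported here. The members, lists and alternatives were chosen with earlier results of these data known. Alternatives were DESeq2 1.42.0, voom with quality weights in limma 3.58.1, scaling by size factors or upper quartiles, dropping the filter or requiring a mean count of 50, a replicate block, the second table, an adjusted p below 0.10, leaving out each library, and leaving out LKO chow replicates 1 and 2 or 3 and 4.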

Additional observations from a re-analysis of the deposited data

Results flagged for a closer look

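The 3 called genes differed in their diet effect between genotypes by the edgeR test of that difference: Ppp4r4 at 0.81, Lepr at -1.76 and Adam11 at -1.66 on the log2 scale. Each had an adjusted p of 0.0413, and 11 of 16 fits with 1 library left out called no gene.

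Single libraries far from the other 3 of their group were found in 12 of 264 groups of 4 libraries examined (by Dixon's ratio at its 95% critical value); chance gives about 1 in 20. On chow they were Arglu1 in WT replicate 2 (45.1 CPM), Ciart in WT replicate 4 (2.80 CPM), Fabp4 in LKO replicate 3 (10.2 CPM), Crp in LKO replicate 2 (395 CPM) and Myc in LKO replicate 4 (6.67 CPM), and in LKO replicate 1 Cyp2c29 (1670 CPM) and Glul (724 CPM). On HFD they were Cyp3a41a (1800 CPM) and Ciart (3.10 CPM), both in WT replicate 2, with Cyp3a44 in WT replicate 1 (18.8 CPM), Sfswap in LKO replicate 4 (19.1 CPM) and Myc in LKO replicate 3 (4.90 CPM). Glul was low there and the others were high. None of these genes was called in the interaction by edgeR.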

How the results depend on the processing

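The interaction count of 3 was 5 at an adjusted p below 0.10, 48 in DESeq2, 16 in voom, 0 with a mean count of at least 50 (5 at an adjusted p below 0.10), 0 with the replicate block (1142 at unadjusted p below 0.05, lowest adjusted p of the 3 genes 0.0539 for Adam11), 1262 without LKO chow replicates 1 and 2, and 0 to 9 without single libraries. Upper-quartile scaling gave 2, losing Ppp4r4 (0.74, adjusted p = 0.108). The cause was not tested.

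The genotype count on HFD was 4516 in voom. The diet count in WT (294) was 595 at an adjusted p below 0.10, 706 in DESeq2, 484 in voom, 155 to 359 without single libraries, and 502 or 618 without LKO chow replicates 3 and 4 or 1 and 2, which it shares only through the pooled spread. The diet count in LKO (320) was 689, 779, 2053, 111 to 659, and 179 or 2766 under the same settings. The genotype count on chow stayed within 1.5 times (2376 to 5037).

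Signs turned for Arglu1 (-0.01 with upper-quartile scaling, -0.07 without LKO chow replicates 3 and 4, -0.0026 and -0.01 without replicate 2 of WT chow or 4 of LKO chow, with -0.01 to 0.11 over single libraries left out). Only some lists were followed through every setting. Among these, the median of male-biased genes turned (0.10 without LKO chow replicates 3 and 4). That of p53 targets turned to -0.04 in the same fit and to -0.0020 and -0.01 without WT chow replicate 2 or 4. It ran from -0.01 to 0.11 over single libraries left out. The other lists were read in fewer fits, and several of their medians turned too, as given above. Mitochondrially encoded genes turned from -0.16 to 0.24 without LKO chow replicates 3 and 4. Kupffer cell markers turned from -0.05 to 0.79 without replicates 1 and 2. The counts table cannot show genes silent in any library, and with 4 libraries a group the median SE of 0.217 limits what an interaction test could call.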
